A study of Homo sapiens with 4 samples.

Results

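Expression of 10 genes was followed: ID1, ID2, ID3, ID4, SMAD6, SMAD7, BAMBI, TGFBI, SKIL and LTBP2, out of the 61806 genes in the deposited table. They were taken by symbol as BMP and TGF-beta response genes, namely the ID genes, the inhibitory SMADs and other genes known as SMAD targets. RNA had been sequenced from JJ012, a human chondrosarcoma cell line, and 143B, a human osteosarcoma cell line, both kept detached from the culture surface. In each line a culture treated with melatonin (1 mM for 72 h) stood beside an untreated culture, with 1 library per condition and 4 libraries in all. Whether the untreated cells received the solvent of melatonin is not given in the sources used here. With 1 library per condition there was no spread between cultures, so no p-value was computed and every interval below covers counting error only.

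BMP and TGF-beta ligands bind serine/threonine kinase receptors, which phosphorylate receptor SMADs, and these enter the nucleus with SMAD4 and switch target genes on or off. BMPs act mainly through SMAD1, SMAD5 and SMAD9, whereas TGF-beta and activins act mainly through SMAD2 and SMAD3. In cartilage and bone, BMPs drive the commitment of chondrocytes and osteoblasts, and TGF-beta controls the production of matrix. Several targets feed back on the pathway: SMAD6 and SMAD7 block the receptors, BAMBI is a decoy receptor without a kinase, and SKIL represses transcription by SMAD complexes. The ID proteins are helix-loop-helix proteins without a DNA-binding domain that hold E proteins away from DNA. TGFBI and LTBP2 are secreted matrix proteins, the first with fasciclin domains and the second a relative of the proteins that store latent TGF-beta.

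All 10 genes are typed as protein-coding in GENCODE 29. In the authors' positions on hg38, ID1 (ENSG00000125968) lies on the plus strand of chromosome 20 from 31605283 to 31606515, ID2 (ENSG00000115738) on the plus strand of chromosome 2 from 8678845 to 8684461, and ID3 (ENSG00000117318) on the minus strand of chromosome 1 from 23557926 to 23559501. TGFBI (ENSG00000120708) lies on the plus strand of chromosome 5 from 136028988 to 136063818. SMAD6 (ENSG00000137834) lies on the plus strand of chromosome 15 from 66702236 to 66782849, and SMAD7 (ENSG00000101665) on the minus strand of chromosome 18 from 48919853 to 48950965. The exonic length ranged from 1233 bases for ID1 to 9078 bases for LTBP2. ID2 overlaps the antisense gene ID2-AS1, which had 90 and 42 counts in the JJ012 control and melatonin libraries and 31 and 17 in those of 143B. ID4 overlaps the antisense gene LNC-LBCS, with at most 19 counts in a library. Whether the counting used strand is not given in the sources used here, so part of the ID2 and ID4 counts could come from the other strand. SMAD6 and LTBP2 each overlap an unnamed gene with 0 counts in every library.

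Upstream sequence is shown for 3 genes that behaved differently with melatonin in JJ012: ID1 and SKIL, whose levels stayed within counting error, and TGFBI, which had the largest difference of the 10. Each stretch is the part of the 250 bases before the transcription start that lies outside every exon of GENCODE 29. They come from RefSeq on GRCh38.p14 and read 5′ to 3′ on the strand of the gene, with the 4-base SMAD box GTCT (AGAC on the other strand) in capitals.
ID1 upstream, chr20:31605039-31605282, plus strand: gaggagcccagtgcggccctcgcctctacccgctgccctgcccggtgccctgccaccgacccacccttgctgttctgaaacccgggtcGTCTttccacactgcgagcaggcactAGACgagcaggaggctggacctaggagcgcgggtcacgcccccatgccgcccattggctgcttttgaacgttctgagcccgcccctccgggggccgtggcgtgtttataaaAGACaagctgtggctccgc
SKIL upstream, chr3:170357465-170357677, plus strand: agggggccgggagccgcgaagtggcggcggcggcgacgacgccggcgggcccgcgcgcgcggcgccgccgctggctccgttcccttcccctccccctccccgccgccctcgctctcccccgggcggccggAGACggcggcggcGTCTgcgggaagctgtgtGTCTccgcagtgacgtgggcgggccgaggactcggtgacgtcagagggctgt
TGFBI upstream, chr5:136028738-136028894, plus strand: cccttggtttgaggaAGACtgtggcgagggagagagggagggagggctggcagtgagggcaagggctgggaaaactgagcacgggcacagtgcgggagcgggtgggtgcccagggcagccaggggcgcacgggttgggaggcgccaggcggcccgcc

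Counted on both strands over all 250 bases, the first listed windows of SMAD7 and BAMBI held 4 SMAD boxes each, those of ID1 and SKIL 3 each, those of ID2, ID3 and SMAD6 2 each, and those of ID4, TGFBI and LTBP2 1 each. All 10 genes had at least 1 SMAD box in the window of their first listed start, but so did 77.5% of the 35116 promoter windows in the RefSeq table. The palindrome GTCTAGAC, in which 2 SMAD boxes abut, was found for 1 of the 10 genes and in 0.182% of all windows. It lies in SMAD6, 5 to 12 bases before the start, and the last 30 bases of that window are shown for it.
SMAD6 start, chr15:66702206-66702235, plus strand: ccgcggagccgccaaagtGTCTAGACtggc
The GC-rich element GGCGCC, which SMADs of the BMP branch can bind, was present for BAMBI, TGFBI, SKIL and LTBP2, 4 of the 10 genes, against 16.4% of all windows. These 4 windows were 81.2%, 72.8%, 78.4% and 68.8% G and C, against a median of 58% over all windows. The window of ID4, without the element, was 78.8% G and C. The cAMP response element TGACGTCA was present for SKIL alone among the 10, against 1.65% of all windows. These matches describe the letters of the windows and not binding.

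The libraries held between 15889564 and 19218343 counts, and between 13198 and 14477 genes per library reached 1 FPKM (counts scaled to exonic length and library total). A floor of 3 counts corresponded to between 0.156 and 0.189 CPM (counts scaled to the library total alone). Mitochondrially encoded genes took between 1.63% and 6.78% of the counts, with 6.78% in untreated JJ012 and 4.35% after melatonin. The cartilage and bone markers of the labelled tumour types were mixed. In JJ012, COL11A1, a chain of cartilage collagen XI, had 22.92 FPKM in the control and 3.24 after melatonin, and SOX9, the transcription factor of cartilage, had 15.06 and 6.16. COL2A1 had 0 counts in both JJ012 libraries, and ACAN had 4 and 3 counts. In the 143B control, SP7 and IBSP had 0 counts, ALPL had 17 counts, and RUNX2, the osteoblast transcription factor, was at 4.28 FPKM. SOX9 was at 15.48 FPKM there, a level like that of the JJ012 control. The 10 chondrocyte markers summed to 39.74 FPKM in the JJ012 control and 16.92 in the 143B control. The 8 osteoblast markers summed to 94.74 and 6.97 FPKM, with SPP1 at 79.39 and 0.4. Their sum was thus higher in the chondrosarcoma line. With melatonin in JJ012, both of the 2 tested of 10 chondrocyte markers and 1 of the 3 tested of 8 osteoblast markers fell, and in 143B none of the 1 and 2 tested passed the threshold.

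Levels of the 10 genes spanned a wide range. ID1 and ID3 were the most abundant of them in untreated JJ012, whereas TGFBI and SKIL were the most abundant in untreated 143B. ID4 stayed below 1 FPKM in all 4 libraries, with 10 to 38 counts, and LTBP2 stayed below it in both JJ012 libraries. The plot of levels by library shows these values together.

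**Figure D1:**
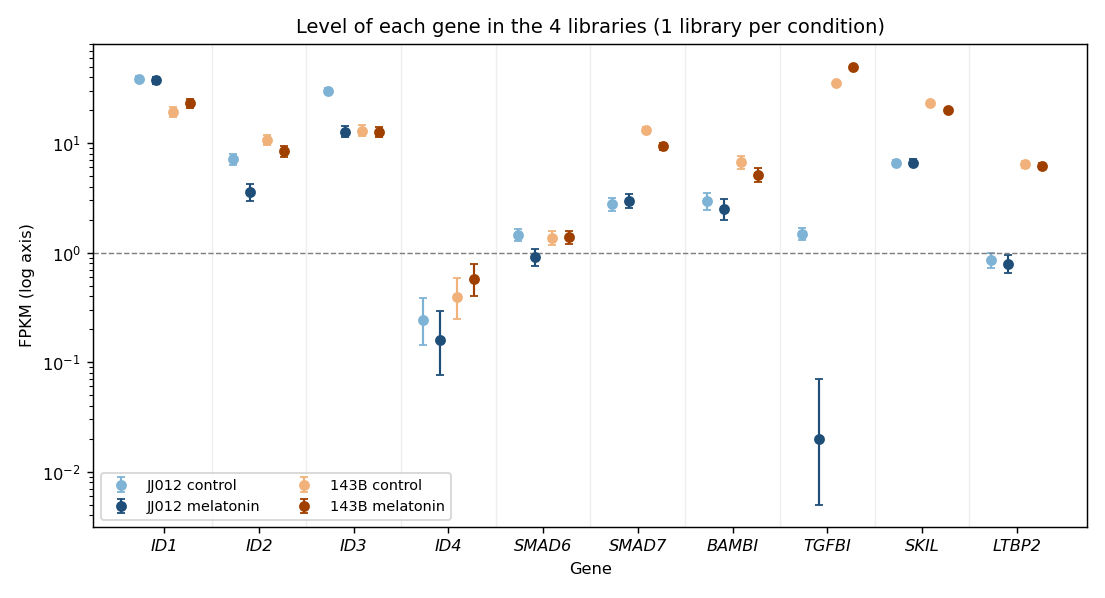
FPKM of each gene on a log axis in the 4 libraries, 1 point per library, with 95% Poisson counting intervals as bars and a dashed line at 1 FPKM. SMAD7, BAMBI, TGFBI, SKIL and LTBP2 lie higher in both 143B libraries than in both JJ012 libraries, and the single point near 0.02 FPKM is TGFBI in melatonin-treated JJ012, from 3 counts.

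The first question was what melatonin did in JJ012. TGFBI fell from 220 to 3 counts, ID3 was lower by 2.36-fold and ID2 by 2.01-fold, while the differences of ID1, SMAD7 and SKIL lay within their counting error. On the scale used for the counts of changed genes, the log2 ratio of FPKM + 1, a gene was tested when either library compared held 1 FPKM or more of it. It was called changed at an absolute value of at least 0.58, the fold threshold of the study. Of the 8 listed genes that were tested in JJ012, 3 were lower and 0 were higher. Among all 15794 tested genes, 18.6% were lower and 19.6% were higher, 38.2% in either direction, and among protein-coding genes 33.9% changed. The median of the 8 genes was -0.27 against 0.01 for all tested genes. Since 3 of 8 is close to the share of all tested genes that changed, the values below describe single genes and not a property of the list.

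The ID genes came first in the order of roles, as the classical direct targets of BMP signalling. ID1 had 38.7 FPKM in the JJ012 control and 37.38 after melatonin, from 917 and 744 counts. Its ratio of CPM was 0.966, with a 95% interval of 0.876 to 1.07, so no change was detectable. ID2 had 7.15 and 3.55 FPKM, from 304 and 127 counts. It was lower after melatonin by 2.01-fold (interval 1.63 to 2.49), which is -0.84 in log2 of FPKM + 1.
ID3 had 30.09 FPKM in the control and 12.75 after melatonin, from 865 and 308 counts. It was lower by 2.36-fold (interval 2.07 to 2.70), with a log2 fold change of -1.18. The intervals of ID2 and ID3 did not overlap that of ID1, so that within the family these JJ012 libraries differed unequally. ID4 had 18 and 10 counts, and its ratio of 0.661 had an interval of 0.273 to 1.51.
Across the 15794 tested genes, which are not independent, fold changes in JJ012 and exonic length had a Spearman correlation of 0.24, and ID1, ID2 and ID3 are short genes. With the running median over exonic length removed, ID3 stayed lower at -0.86, ID2 came to -0.52 and no longer passed the threshold, and ID1 came to 0.27.

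Summed over the 4 ID genes, the level was 76.18 FPKM in the JJ012 control and 53.84 after melatonin, against 43.44 and 44.75 in the 143B libraries. ID1 made up 50.8% of that sum in untreated JJ012 and 69.4% after melatonin, and ID3 made up 39.5% and 23.7%. The E proteins that ID proteins bind, TCF3, TCF4 and TCF12, summed to 26.49 and 24.86 FPKM in JJ012. The ratio of summed ID to summed E protein RNA was 2.88 in the JJ012 control and 2.17 after melatonin. In 143B the ratio was 1.04 in the control and 1.21 after melatonin, with E proteins at 41.66 and 37.09 FPKM. By these sums the lines differed more than the treatments, but the ratios carry no interval. ID1, ID2 and ID3 have exonic lengths of 1233, 2213 and 1496 bases, and TCF3, TCF4 and TCF12 of 6089, 29166 and 9446. The length trend was not removed from the sums, so part of the difference between the lines could come from it.

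Among the feedback inhibitors, SMAD6, which acts mainly on the BMP branch, had 1.46 FPKM in the JJ012 control and 0.91 after melatonin, from 240 and 126 counts. By CPM it was lower by 1.60-fold (interval 1.28 to 2.00), more than its counting error. With the pseudocount its log2 fold change was -0.37, which did not pass the threshold, and with the length trend removed it was -0.61, which did. SMAD7, which acts on both branches, had 2.76 and 2.95 FPKM, and the interval of its ratio was 0.875 to 1.31. The ratio of SMAD7 to SMAD6, in FPKM, was 1.89 in the control and 3.24 after melatonin.
BAMBI had 2.94 and 2.49 FPKM, with an interval of 0.634 to 1.12. SKIL had 6.63 and 6.64 FPKM, from 991 and 834 counts, with an interval of 0.913 to 1.10. LTBP2 had 148 and 115 counts, with an interval of 0.719 to 1.19. By this counting interval alone, 4 of the 8 tested genes differed between the JJ012 libraries, while 72.2% of all tested genes did so in either direction. The 4 were ID2, ID3, SMAD6 and TGFBI, all lower after melatonin.

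TGFBI, a collagen-binding matrix protein named for its induction by TGF-beta, had 1.48 FPKM in the JJ012 control and 0.02 after melatonin, from 220 and 3 counts. It was lower by 61.6-fold, with an interval from 20.8-fold to 301-fold, which is wide because only 3 counts remained. In log2 of FPKM + 1 the change was -1.28, which understates the change of a gene at this level. Of all tested genes, 6.44% changed by as much or more on that scale.
Other matrix genes also fell in JJ012, and the intervals of the collagens COL1A2 and COL3A1 lay within that of TGFBI, so their folds could not be ranked against it. COL1A2 had 2594 and 24 counts, lower by 90.8-fold (interval 60.9 to 142), and COL3A1 had 1305 and 10 counts, lower by 109.6-fold (interval 59.4 to 229). COL1A1 had 1891 and 112 counts and was lower by 14.2-fold. POSTN, the closest relative of TGFBI among the fasciclin proteins listed, had 343 and 28 counts and was lower by 10.3-fold (interval 6.99 to 15.7).
In bulk RNA, fewer cells of a type and less RNA per cell cannot be told apart. Markers of other cell types also moved in JJ012. The summed level of 5 leukocyte markers was 12.29 FPKM in the control and 4.83 after melatonin, most of it CD3E with 497 and 141 counts, and 1 of the 2 tested was lower. The sum of 5 epithelial markers was 21.55 and 13.56 FPKM, with KRT19 at 97 and 1 counts and CDH1 at 1 and 0 counts, and 2 of the 3 tested were lower. The 4 endothelial markers summed to 2.4 and 0.93 FPKM and the 3 muscle markers to 2.34 and 1.01 FPKM, with 1 tested and lower in each. Their part in the fall of TGFBI was not tested.

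**Figure D2:**
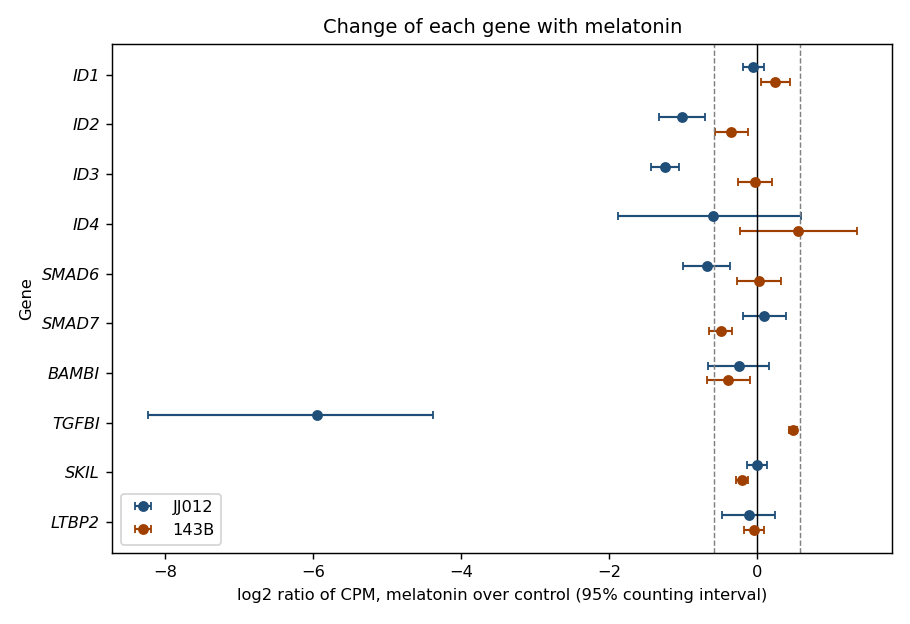
Log2 ratio of CPM, melatonin over control, for each gene in JJ012 (blue) and 143B (brown), with exact 95% counting intervals as bars, a solid line at no change and dashed lines at 0.58 in each direction. TGFBI in JJ012 lies at -5.94, ID2 and ID3 in JJ012 at -1.01 and -1.24, and no point of 143B with an interval free of 0 lies beyond the dashed lines.

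In 143B the same treatment was accompanied by small differences. TGFBI was higher after melatonin by 1.40-fold, SMAD7 lower by 1.41-fold and BAMBI lower by 1.31-fold, and no listed gene passed the threshold. Of the 9 listed genes tested, 0 were lower and 0 were higher, against 6.65% lower and 6.09% higher of all 14135 tested genes, 12.7% in either direction. Among protein-coding genes the share was 6.09% in either direction. Their median log2 fold change was -0.03, and that of all tested genes was 0.03. By the counting interval alone, 6 of the 9 tested differed, 2 higher and 4 lower, and 52.0% of all tested genes did so.

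ID1 had 19.4 FPKM in the 143B control and 23.06 after melatonin, from 380 and 488 counts, a ratio of 1.19 (interval 1.04 to 1.36). ID2 had 10.69 and 8.42 FPKM, from 376 and 320 counts, and was lower by 1.27-fold (interval 1.09 to 1.48). ID3 had 12.96 and 12.7 FPKM, with an interval of the ratio from 0.836 to 1.15. A change of ID3 as large as in JJ012 lay outside that interval. ID4 had 24 and 38 counts, with an interval of 0.857 to 2.55.
Among the inhibitors of 143B, SMAD6 had 1.35 and 1.38 FPKM, with an interval of 0.832 to 1.25. SMAD7 had 13.14 FPKM in the control and 9.35 after melatonin, from 824 and 633 counts, lower by 1.41-fold (interval 1.27 to 1.56), with a log2 fold change of -0.45. The ratio of SMAD7 to SMAD6 was 9.73 in the control and 6.78 after melatonin, opposite in direction to JJ012.
BAMBI had 6.65 and 5.09 FPKM, lower by 1.31-fold (interval 1.07 to 1.59), and SKIL had 23.27 and 20.23 FPKM, lower by 1.15-fold (interval 1.09 to 1.21). SMAD7, BAMBI and SKIL thus lay slightly below their control level in 143B, by less than the threshold, while SMAD6 did not differ beyond counting error. LTBP2 had 6.38 and 6.22 FPKM, with an interval of 0.890 to 1.07. TGFBI had 35.35 FPKM in the control and 49.46 after melatonin, from 4334 and 6552 counts. Its ratio of 1.40 had the narrow interval of 1.35 to 1.45, and its log2 fold change was 0.47.

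The next comparison set the responses of the 2 lines against each other, as the fold change in 143B over that in JJ012. ID3 and TGFBI were the listed genes whose responses lay apart by at least 0.58, 2 of the 8 that were tested in both lines, with the response higher in 143B. Of all 11822 genes tested in both lines, 39.7% lay that far apart, 18.5% higher and 21.2% lower in 143B, and among protein-coding genes 37.4% did. The ratio of the fold changes was 2.31 for ID3 (interval 1.89 to 2.83) and 86.2 for TGFBI (interval 27.6 to 269.5), which moved in opposite directions in the lines. For ID2 it was 1.58 (interval 1.23 to 2.04) and for SMAD6 1.63 (interval 1.22 to 2.19), under the threshold with the pseudocount. SMAD7 had 0.664 (interval 0.532 to 0.830), with its lower value after melatonin in 143B and not in JJ012. BAMBI, at 0.905, had an interval of 0.646 to 1.27, so no difference between the lines was detectable for it. By the counting interval, 7 of the 8 listed genes tested in both lines differed in response, against 68.9% of all genes tested in both.

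The last comparison set the untreated lines against each other. SMAD7, SKIL, BAMBI, TGFBI and LTBP2 were higher in untreated 143B, and ID1 and ID3 were higher in untreated JJ012. Of the 9 listed genes tested, 5 were higher and 2 lower in 143B. This is 7 of 9, and 68.7% of all 16929 tested genes differed, 27.4% higher and 41.3% lower in 143B, with 64.6% of protein-coding genes differing in either direction. By the counting interval, 8 of the 9 tested differed, against 86.0% of all tested genes. The median of the 9 genes was 0.96 against -0.29 for all tested genes. Line, tumour type and library cannot be told apart here.
TGFBI was 23.8-fold higher in the 143B control (interval 20.8 to 27.4), LTBP2 7.52-fold (interval 6.31 to 9.01) and SMAD7 4.77-fold (interval 4.09 to 5.58). SKIL was 3.51-fold higher (interval 3.27 to 3.78) and BAMBI 2.26-fold (interval 1.80 to 2.84). ID1 was lower in the 143B control by 2.00-fold (interval 1.77 to 2.25) and ID3 by 2.32-fold (interval 2.04 to 2.65). ID2 was higher there, with 10.69 against 7.15 FPKM and a log2 fold change of 0.52, which did not pass the threshold. SMAD6 differed by less than its counting error, at 1.46 and 1.35 FPKM in the JJ012 and 143B controls.
With the running median over exonic length removed, ID1 came to -0.13 and ID3 to -0.26, so neither passed the threshold, and ID2 came to 1.31, which did. Fold changes between the untreated lines and exonic length had a Spearman correlation of 0.15 across the 16929 tested genes.

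**Figure D3:**
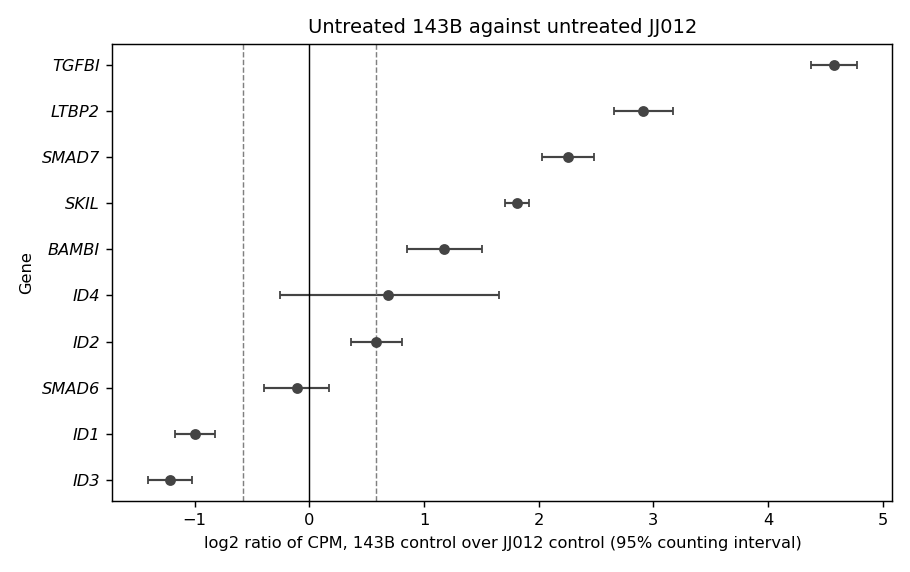
Log2 ratio of CPM, 143B control over JJ012 control, for each gene in order of the ratio, with exact 95% counting intervals as bars, a solid line at no difference and dashed lines at 0.58 in each direction. TGFBI at 4.57 and LTBP2 at 2.91 are the highest, ID3 at -1.22 is the lowest, and the intervals of ID4 and SMAD6 include 0.

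Ordered over the 4 libraries, SMAD7, SKIL, BAMBI, TGFBI and LTBP2 had both 143B libraries above both JJ012 libraries. SMAD7, SKIL and BAMBI shared 1 order of lines and of 143B libraries, with the 143B control highest and melatonin-treated 143B next. Their JJ012 libraries did not differ beyond counting error. ID1 had the opposite order of lines, with the JJ012 libraries indistinguishable from each other and above both 143B libraries. ID3 was high in the JJ012 control alone. Melatonin-treated JJ012 and both 143B libraries had 12.75, 12.96 and 12.7 FPKM of it, which by library totals did not differ beyond counting error. TMM scaling factors were 1.09 for melatonin-treated JJ012 and 0.90 and 0.89 for the 143B control and melatonin libraries. The order was not computed with these factors. With the length trend removed, ID3 did not pass the threshold between the untreated lines, so its place depends on the processing. ID2 was lowest in melatonin-treated JJ012 and highest in the 143B control, with each step beyond counting error. No step between neighbouring libraries exceeded counting error for ID4.
Profiles were compared as the Euclidean distance of log2(FPKM + 1), each gene less its mean over the 4 libraries. Within the list, SMAD7 and SKIL were closest, at 0.20. Out of 8529 protein-coding candidates that reached 5 FPKM in a library, LCMT1 (distance 0.0068) and ANGEL2 (0.019) were nearest to ID1. PER2 (0.082), a circadian clock repressor, and KIFC3 (0.17) were nearest to SMAD7. CLEC2B (0.54) and COL9A3 (0.55), a chain of cartilage collagen IX, were nearest to TGFBI. With 4 libraries, many genes can share such a profile.

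The rest of the pathway was taken from lists by role, and each count is to be read beside the shares of all tested genes, which were 19.6% higher and 18.6% lower in JJ012 and 6.09% higher and 6.65% lower in 143B. In the authors' KEGG annotation, 129 genes besides the listed ones carried the TGF-beta signaling pathway. In JJ012, 16 of the 66 tested rose and 8 fell, with a median log2 fold change of 0.26 against 0.01 for all tested genes. In 143B, 1 of the 65 tested rose and 2 fell, with a median of 0.05. The trend of JJ012 fold changes with exonic length was not removed from the values of this pathway or of the lists by role. Of the 129 genes, 93 are protein-coding, and of the 61 of these tested in JJ012, 14 rose and 8 fell. Among these protein-coding genes, the lowest values in JJ012 were those of BMP4 and NBL1, and the highest were those of MYC and SP1. MYC, a growth-promoting transcription factor, rose from 2.86 to 10.2 FPKM, and SP1, a general activator, from 9.88 to 24.62 FPKM.

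Of the 20 ligands listed, 4 were tested in JJ012, with 1 higher and 2 lower, too few to set against the shares of all genes. BMP4 fell from 2.57 to 0.62 FPKM and GDF11 from 3.23 to 1.43, whereas TGFB2 rose from 0.65 to 2.83. In 143B, INHBA, the subunit of activin A, rose from 10.44 to 16.76 FPKM and was the single one of 10 tested ligands past the threshold. GDF11 had 1.47 and 2.64 FPKM there, a log2 fold change of 0.56, just under it.
The extracellular antagonists, which trap BMPs or activins, had 3 of 6 tested genes lower and 0 higher in JJ012, where 18.6% of all genes were lower. NBL1 fell from 57.33 to 26.43 FPKM, FSTL3 from 61.23 to 34.9, and FST from 6.88 to 3.58. In 143B none of the 5 tested passed the threshold. NOG, which encodes the BMP trap noggin, had 94.48 FPKM in the 143B control and 2.01 in the JJ012 control, and GREM1 had 14.17 and 0.01.
Of the 5 tested genes of latent TGF-beta binding proteins and microfibrils in JJ012, 2 fell. LTBP3 fell from 15.5 to 7.89 FPKM and LTBP1 from 8.87 to 5.1, and 0 of 6 changed in 143B. For LTBP2 itself no change was detectable in either line.

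Of the 13 receptors, 4 rose and 1 fell in JJ012, a share of changed genes close to the 38.2% of all tested genes. TGFBR3, the co-receptor betaglycan, rose from 3.14 to 8.49 FPKM, and ACVR1, a type I receptor of BMPs, from 7.92 to 16.72. ACVRL1, a type I receptor best known from endothelium, fell from 5.37 to 1.89 FPKM. In 143B, 1 of 11 tested receptors changed, with ACVR1C falling from 5.31 to 2.99 FPKM.
Among the 6 signal-transducing SMADs, SMAD3 rose in JJ012 from 7.15 to 12.53 FPKM and was the only one of them past the threshold. SMAD3 had 62.62 FPKM in the 143B control and 60.93 after melatonin. SMAD9 fell in 143B from 4.5 to 2.4 FPKM, and in JJ012 it had 1.53 and 0.74, a log2 fold change of -0.54. SMAD9 is itself a target of BMP signalling.
The intracellular negative regulators had 4 of 9 higher and 1 lower in JJ012, where 19.6% of all genes were higher. SMURF1, a ubiquitin ligase for SMADs and receptors, rose from 9.23 to 20.42 FPKM, and SKI, the relative of SKIL, rose from 12.46 to 25.94. SKIL differed from its relative in having the same level in both JJ012 libraries. PMEPA1, which is also induced by TGF-beta, fell from 2.16 to 0.71 FPKM. None of the 9 passed the threshold in 143B.

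Of the targets of TGF-beta outside the listed genes, 12 of the 20 tested fell in JJ012 and 4 rose, with a median of -0.80, where 18.6% of all genes were lower and 19.6% higher. The 12 included the fibrillar collagens COL1A1, COL1A2 and COL3A1. SNAI2, a transcription factor of mesenchymal cells, rose in JJ012 from 25.2 to 57.98 FPKM. In 143B, 1 of 15 tested targets rose and 1 fell, which was FN1, fibronectin, from 69.52 to 34.76 FPKM. FN1 fell in JJ012 as well, from 799.64 to 457.91 FPKM.
Of the 9 other BMP targets, 4 were tested in JJ012 and 0 passed the threshold, but 2 were lower with a pseudocount of 0.1 FPKM. With CPM 3 were lower and 0 higher, and with TPM 2 were lower and 1 higher. ATOH8, under 1 FPKM in every library and so not tested, had 52 and 5 counts in JJ012, lower in CPM by 8.74-fold (interval 3.51 to 28.0). Of the 4 tested, NOG had the lowest value, at 2.01 and 1.04 FPKM, lower in CPM by 1.94-fold (interval 1.27 to 3.04). SMAD9 was lower in CPM by 2.05-fold (interval 1.55 to 2.75). HEY1 had the highest value, at 6.83 and 9.48 FPKM, higher in CPM by 1.39-fold (interval 1.26 to 1.54). MSX1, the remaining tested gene, had 5.2 and 6.05 FPKM, with an interval of the ratio from 0.955 to 1.41. In 143B, DLX5 rose from 1.73 to 3.64 FPKM and SMAD9 fell, 2 of 8 tested.
The helix-loop-helix partners held 1 call in each direction in JJ012, with TWIST1 falling from 47.11 to 24.6 FPKM and HES1 rising from 0.3 to 1.05, and 0 of 6 in 143B. NOG, GREM1, SMAD9, PMEPA1, TGIF1 and COL1A1 stand in more than 1 of the lists by role and marker, and the KEGG pathway shares genes with the lists by role, so the counts are not independent.

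**Figure D4:**
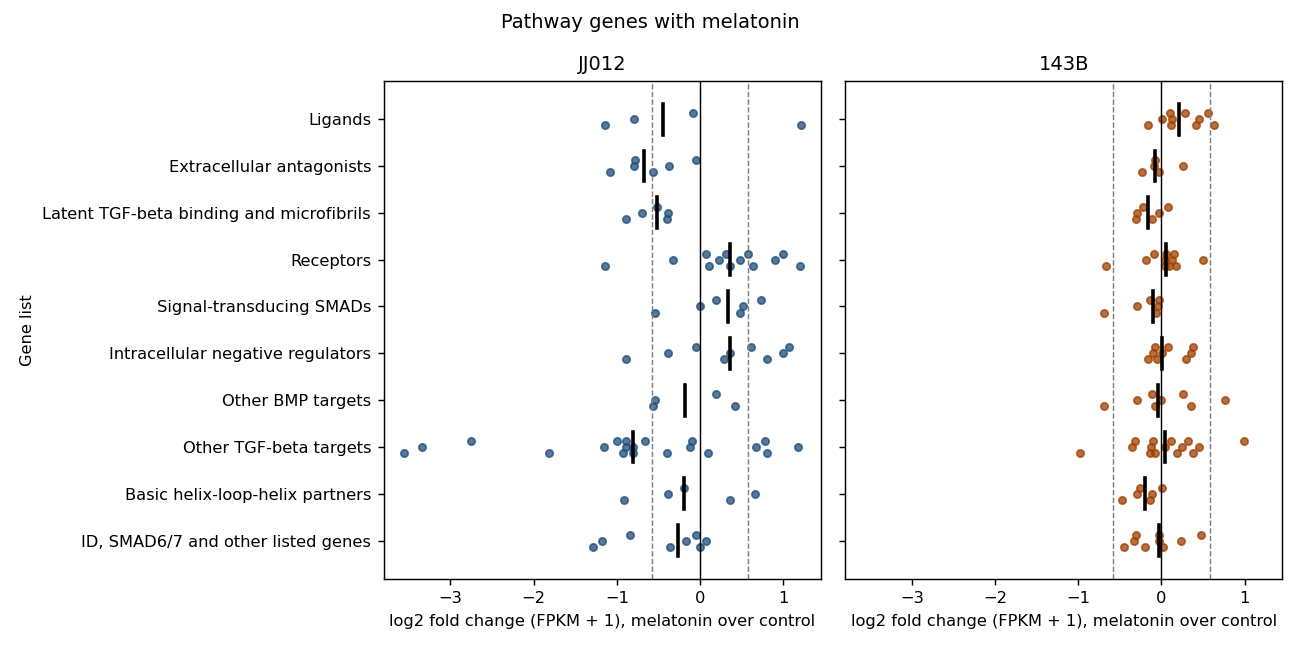
Log2 fold change of FPKM + 1, melatonin over control, for the tested genes of 9 lists by role and of the listed response genes (bottom), in JJ012 (left) and 143B (right), 1 point per gene, with the median as a black bar and dashed lines at 0.58 in each direction. In JJ012 the medians of receptors (0.36), signal-transducing SMADs (0.33) and intracellular negative regulators (0.35) lie above 0 and that of other TGF-beta targets lies at -0.80, while the medians of 143B lie between -0.20 and 0.21. The trend of JJ012 fold changes with exonic length was not removed, and its part in these medians was not tested.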

How the data were processed

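Poly(A) RNA of 4 cultures, 1 per condition, had been sequenced in pairs of reads. The authors deposited 1 table with counts per gene, not normalized, and FPKM values, which are those counts divided by exonic length and library total and rounded to 2 decimals. The submitters' processing notes name cutadapt 1.9.1, HISAT2 2.2.1, HTSeq 0.6.1, DESeq2 and hg38. Strand and overlap settings are not given in the sources used here. Columns ending in -T were read as the melatonin libraries, which the labels do not spell out.

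Fold changes were log2 ratios of FPKM + 1 over genes with at least 1 FPKM in a compared library, called at 0.58. CPM ratios carry exact 95% intervals (Clopper-Pearson), those of response differences are Wald intervals, and all cover counting error only. PCR copies are not independent molecules, so the true error is larger. No line had replicates to test within it, and no p-value was computed. Totals were 15889564 to 19218343 counts, and the floor was 3 counts. Methods were tested on simulated data with Poisson counting error alone. The planted changes were larger than the threshold and lay in well-counted genes. Changes near the threshold, changes of genes at low levels and spread between cultures were therefore not covered.

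The 10 genes and the gene lists were chosen with earlier results of these data known. The genes named from each list were the 2 highest and 2 lowest fold changes in each line. They were taken among genes with at least 1 FPKM in a library, and for the KEGG pathway among protein-coding genes. Named after their values were seen were FST, COL1A1, FN1 and ATOH8 in JJ012 and the markers COL2A1, ACAN, SP7, IBSP, ALPL and CDH1. The same holds for the levels of NOG, GREM1, SOX9 and SPP1 in the untreated lines. 1 gene of the lists is counted but not reported here by name. Alternatives changed the pseudocount, filter, scaling (TPM, CPM, TMM from edgeR 4.0.16), centring, length trend, threshold and gene type. Python 3.11.15, numpy 2.4.6, scipy 1.17.1, pandas 2.3.3 and R 4.3.3 were used.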

Additional observations from a re-analysis of the deposited data

Results flagged for a closer look

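TGFBI moved in opposite directions with melatonin in the 2 lines. Its log2 ratio of CPM was -5.94 in JJ012, from 220 and 3 counts, and 0.48 in 143B, from 4334 and 6552 counts. The 95% interval of each excluded no change, but with 1 library per condition the difference was not tested against the spread between cultures. Some genes of the lists by role also moved in opposite directions, with intervals that excluded no change in both lines. For IL11 the ratio of CPM was 0.346 in JJ012 and 1.39 in 143B. For GDF11 it was 0.443 and 1.79, and for ENG 0.792 and 1.52. The share of all genes with such opposite moves was not computed, so TGFBI is not set apart by this result.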

How the results depend on the processing

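With 1 library per condition, the spread between cultures is unknown and limits every comparison. No paired analysis was possible because, within a line, each condition had 1 library and the labels carry no replicate numbers. A fit over both lines with the line as a block, which would treat the lines as replicates of 1 response, was not run. Over 10 alternatives, 3 of the 10 genes changed in JJ012 in the reported setting and 2 to 4 in the others, 0 changed in 143B in each, and 7 differed between the untreated lines, with 5 to 9 in the others. The number whose response differed between the lines was 2. It was 4 with a pseudocount of 0.1 FPKM, 4 with CPM, 1 with a filter of 5 FPKM, which leaves out TGFBI in JJ012, and 5 with the length trend removed. Of single fold changes of the 10 genes, 346 stayed within a tolerance of 0.5 of the width of their 95% counting interval, which is wide for TGFBI in JJ012, 54 moved by more, and 0 called values reversed. Within that tolerance, TGFBI in JJ012 went from -1.28 to -2.53 with TPM and BAMBI from -0.17 to 0.03. Counts of changed genes in the other lists stayed within 1.5 times in 250 cases and moved by more in 70. In JJ012 the count was 5 for receptors (2 to 9), 1 for signal-transducing SMADs (0 to 4), 3 for ligands (0 to 7), 3 for antagonists (1 to 5), 5 for negative regulators (2 to 7), 0 for other BMP targets (0 to 3) and 16 for other TGF-beta targets (6 to 16). TPM moved the median of all genes in JJ012 to 0.21, and under it ID1 came to 0.22 there in place of -0.05, so its direction depends on the scaling.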
